A study of Homo sapiens with 12 samples.

Results

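RNA-seq of CWR22Rv1 prostate cancer cells with knockdown of GALNT7 was analysed here for secreted proteins, stress responses, lipid metabolism and lineage genes. CWR22Rv1 is a human prostate carcinoma line, and both groups were stable lines made with lentivirus. The 3 shControl libraries carried a control shRNA, and the 3 GALNT7 KD libraries carried shRNA against GALNT7. They make up 6 of the 12 libraries of the series, and each is labelled as a separate biological replicate. The study's table of lentiviral particles was not used here, so how many shRNAs or independently made lines lie behind each group was not established, and an effect of the line cannot be told apart from an effect of the knockdown, and p-values measure the spread between these cultures only. All genes with a mean normalised read count of at least 5 over the 6 libraries were taken, which gave 17906 of 59424 genes. The lowest mean inside this limit was 5.001 and the highest outside it was 4.99994.

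GALNT7 belongs to the family of enzymes that start mucin-type O-glycosylation by adding N-acetylgalactosamine to serine and threonine in the Golgi. The study describes GALNT7 itself as acting only on proteins to which other members of the family have already added this sugar. Many secreted and cell surface proteins carry such glycans, and the enzymes that extend them act on the sugar already added. Prostate luminal cells are secretory: under androgen they make kallikreins and other fluid proteins, which first fold and form disulphide bonds in the endoplasmic reticulum (ER).

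GALNT7 (ENSG00000109586; GRCh38 chr4:173168753-173323967, plus strand) had normalised read counts of 862, 1042 and 1093 in the shControl libraries and 481, 501 and 400 in the GALNT7 KD libraries. The groups did not overlap, and the transcript fell by 1.11 on the log2 scale (standard error 0.129, limma adjusted p = 0.0051; exact two-sided permutation p = 0.10, the smallest that 3 against 3 libraries allow). The recovered depth was 18364512 to 22264533 reads per library. Markers of luminal prostate cells summed to between 40408 and 42029 in every library, whereas KRT5 was at 0 in all 6 libraries, TP63 at no more than 1 read and CHGA at no more than 1 read. Endothelial markers summed to at most 3.87, fibroblast markers to 123 to 178 and leukocyte markers to 122 to 197. Haemoglobin alpha transcripts (HBA1 and HBA2, near-identical copies that can share reads) summed to 55.7 to 61.3 in shControl and 223 to 255 in GALNT7 KD cells, while HBB and ALAS2 were at 0; the part of these differences in the results below was not tested. Transcripts of the mitochondrial genome were lowest in the second library of each group, with a median log2 difference from the shControl mean of -1.13 in shControl 2 and -1.20 in GALNT7 KD 2, against -0.24 to 0.57 in the other 4 libraries.

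In the test over all genes, 945 genes rose (5.28%) and 678 fell (3.79%), which is 9.06% of the genes tested (limma, adjusted p under 0.05). The groups did not overlap for 32.5% of the genes. Among the genes that passed, 397 changed by at least 1 on the log2 scale, 224 upwards and 173 downwards, and the median absolute log2 fold change was 0.57. Counts of genes past the test fell when any library was left out, to between 525 and 1332. Chromosome 12 had a median log2 fold change of -0.28 over 922 genes, 202 of which fell, so its genes are marked below. In bulk RNA, fewer cells with a transcript cannot be told apart from less of it per cell. Fold changes are on the log2(normalised count + 1) scale, which understates changes of low genes. Of 999 genes written into 32 lists by function, 836 passed the filter on low counts, and 158 of these rose and 84 fell (28.9%). The lists were drawn up with earlier results of these data known, so this share describes the lists and is not evidence for them. Over all genes the median log2 fold change was -0.01. The shares past the test were higher in groups closer to these lists: 10.8% of protein-coding genes and 11.3% of genes with a mean of at least 50.

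**Figure D1:**
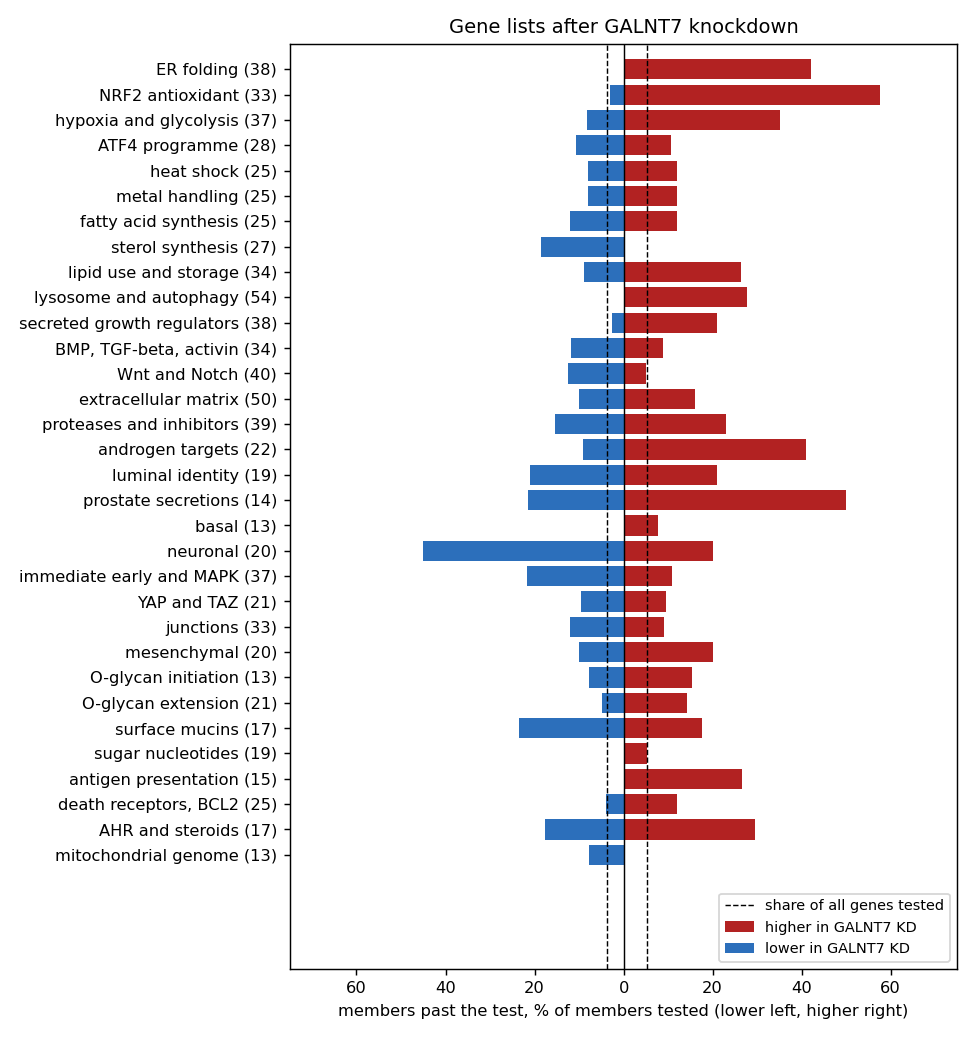
Share of the tested members of each list that rose (red, to the right) or fell (blue, to the left) in GALNT7 KD cells, in percent, with the number of members tested in brackets. Dashed lines mark the shares over all genes tested, 5.28% higher and 3.79% lower; the ER folding list had 16 members higher and 0 lower, and the neuronal list 9 lower and 4 higher.

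Genes for protein folding in the ER rose. Of 38 members tested, 16 rose and 0 fell, with a median log2 fold change of 0.28, and 27 had groups that did not overlap. The list's median in single libraries was -0.01 to 0.02 in shControl and 0.29 to 0.32 in GALNT7 KD cells. By role, 7 of 11 chaperones and their partners rose and 6 of 9 disulphide isomerases and oxidases rose, against 2 of 8 degradation genes, 1 of 5 translocation genes and 0 of 5 sensors and transcription factors.

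HSPA5, the main HSP70 chaperone of the ER lumen (BiP), had normalised counts of 23538, 24027 and 23441 in shControl and 39440, 39025 and 38005 in GALNT7 KD cells. All 3 knockdown libraries lay far above the controls (0.71 on the log2 scale, standard error 0.0268, limma adjusted p = 6.9e-05). MANF, a secreted factor of the stressed ER, was at 6673, 6966 and 6751 against 11085, 11599 and 10535 (log2 fold change 0.70, limma adjusted p = 7.0e-04). PDIA4, a disulphide isomerase, was at 13260, 12804 and 13259 against 20530, 19807 and 21185 (0.65, limma adjusted p = 4.4e-04). HERPUD1, which takes part in the removal of misfolded ER proteins, was at 1682, 1664 and 1601 against 2699, 2646 and 2544 (0.67, limma adjusted p = 0.0015). In each of these genes every GALNT7 KD library exceeded every shControl library.

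The largest fold changes of the list belonged to AGR2 and ERO1B. AGR2, a protein disulphide isomerase of mucin-secreting epithelium, was at 578, 566 and 569 in shControl and 1851, 1922 and 1870 in GALNT7 KD cells (1.72 on the log2 scale, standard error 0.0588, limma adjusted p = 5.3e-05). ERO1B, an oxidase that recharges isomerases, was at 487, 438 and 462 against 1356, 1467 and 1096 (1.49, limma adjusted p = 0.0016). HSP90B1, on chromosome 12, did not pass (log2 fold change 0.11), nor did the factor XBP1 (0.17) or the sensor ERN1 (0.04). With GALNT7 KD replicate 1 left out the count of members that rose was 11, the lowest of the 6.

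The stress-induced factors ATF6 and spliced XBP1 are known to act through a pair of promoter elements. The first is CCAAT and CCACG set 9 bases apart, and the second is ATTGG and CCACG set 1 base apart. Both were searched on both strands, each by itself, in the 250 bases before the start sites of RefSeq (GRCh38.p14), where 36 of the 38 members had an entry. The first was found in 8 members and in 0.0916% of all 27305 genes with a window (25 genes). The second was found in 3 members and in 0.0659% of all genes. The list was written by hand and holds genes of this stress response. More matches in it than over all genes therefore describe the list and are not a result of the knockdown. The matches of the first are shown because they lie in front of 5 members that rose (HSPA5, CALR, CRELD2, PDIA6 and ERO1B) and 3 that did not pass (CANX, HSP90B1 and XBP1). Each is written 5′ to 3′ on the strand of the gene, with the fixed bases in capitals, and where CGTGG comes first the element lies on the opposite strand.
HSPA5 (chr9:125241391-125241409, minus strand): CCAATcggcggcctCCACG
CALR (chr19:12938384-12938402, plus strand): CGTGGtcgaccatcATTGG
CRELD2 (chr22:49918554-49918572, plus strand): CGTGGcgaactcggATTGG
PDIA6 (chr2:10812853-10812871, minus strand): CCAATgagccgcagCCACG
ERO1B (chr1:236282183-236282201, minus strand): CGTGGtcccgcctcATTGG
CANX (chr5:179698778-179698796, plus strand): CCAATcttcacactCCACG
HSP90B1 (chr12:103930216-103930234, plus strand): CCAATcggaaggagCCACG
XBP1 (chr22:28800603-28800621, minus strand): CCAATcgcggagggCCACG

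HSP90B1 held a further match on the opposite strand. The second element was found before HERPUD1 and HYOU1, which rose, and SDF2L1, which did not pass. With a library left out, the calls of CRELD2 (limma adjusted p at most 0.060, without shControl replicate 2 or 3 or GALNT7 KD replicate 1) and HYOU1 (at most 0.058, without shControl replicate 3 or GALNT7 KD replicate 1) were lost. The full windows of HSPA5 (chr9:125241344-125241593, minus strand), where the element starts 66 bases before the start site, and of HERPUD1 (chr16:56931892-56932141, plus strand), where the second element starts 117 bases before it, are given with the matches in capitals.
HSPA5: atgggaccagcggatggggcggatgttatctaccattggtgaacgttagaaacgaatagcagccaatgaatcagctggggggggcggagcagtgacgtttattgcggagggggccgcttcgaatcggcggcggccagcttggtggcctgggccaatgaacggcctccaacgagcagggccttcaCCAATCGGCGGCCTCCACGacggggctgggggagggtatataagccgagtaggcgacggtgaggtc
HERPUD1: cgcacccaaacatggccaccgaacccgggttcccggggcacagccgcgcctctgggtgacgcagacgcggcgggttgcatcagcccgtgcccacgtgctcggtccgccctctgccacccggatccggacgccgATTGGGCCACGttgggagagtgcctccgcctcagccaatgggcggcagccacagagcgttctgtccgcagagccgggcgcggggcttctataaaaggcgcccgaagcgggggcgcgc

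Taking every gene with the first element, 16 of the 25 passed the filter on low counts; 6 rose and 0 fell, with a median log2 fold change of 0.17. Outside the ER folding list 8 such genes were tested and 1, TRIM5, rose. Of the 18 genes with the second element 14 were tested; 3 rose and 0 fell, with a median log2 fold change of 0.17, and outside the list 1 of 11, PLS3, rose. A match is a description of the letters in the window, and binding of a factor was not measured.

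Targets known for NRF2, the transcription factor of the antioxidant response, also rose. Of 33 members tested, 19 rose and 1 fell, with a median log2 fold change of 0.36. All 5 enzymes of quinone and haem breakdown on the list rose, as did 5 of 7 glutathione genes, 3 of 4 thioredoxin genes and both ferritin chains. HMOX1, the haem oxygenase, was at 161, 155 and 159 in shControl and 526, 507 and 581 in GALNT7 KD cells (1.76 on the log2 scale, standard error 0.0963, limma adjusted p = 4.4e-04). NQO1, a quinone reductase, was at 612, 640 and 604 against 1420, 1443 and 1589 (1.26, standard error 0.0727, limma adjusted p = 4.8e-04). No library of one group came near the other in either gene. BLVRA, which reduces the biliverdin made by haem oxygenase, was at 209, 329 and 266 against 602, 596 and 517 (1.11, limma adjusted p = 0.013), and its call was lost without shControl replicate 3 or GALNT7 KD replicate 1 (adjusted p at most 0.062). MGST3, a microsomal glutathione transferase, was at 216, 223 and 214 against 375 to 460 (0.90, limma adjusted p = 0.0063).

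Of the 5 NADPH-supplying enzymes of the list 0 rose and TALDO1 fell (log2 fold change -0.38, limma adjusted p = 0.018; at most 0.073 without shControl replicate 1 or 3 or GALNT7 KD replicate 1). NFE2L2, which encodes NRF2, and its inhibitor KEAP1 had log2 fold changes of -0.15 and -0.23 and did not pass. The count of NRF2 targets that rose was 10 without shControl replicate 1 or GALNT7 KD replicate 1 and 12 without shControl replicate 3, and their median stayed between 0.35 and 0.40 with any library left out. GSTM3 belongs to a family of similar genes, so its reads may be shared (0.84, limma adjusted p = 0.022; at most 0.085 without shControl replicate 1 or 3 or GALNT7 KD replicate 1 or 2).

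**Figure D2:**
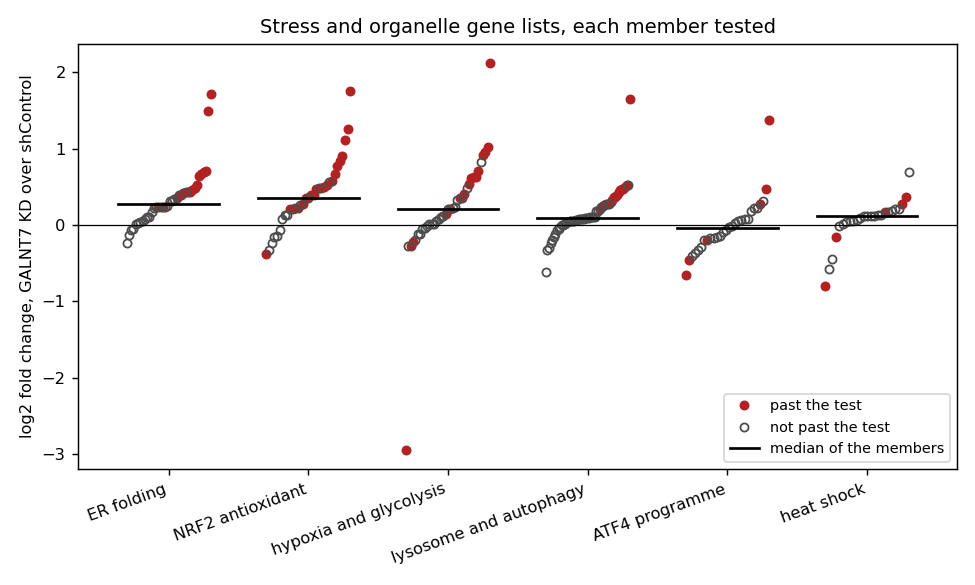
Log2 fold change of GALNT7 KD over shControl for every tested member of 6 lists, ordered by value; filled red points passed the test and open points did not, and black lines are medians. The medians were 0.28 for ER folding, 0.36 for NRF2 targets, 0.21 for hypoxia and glycolysis, 0.09 for lysosome and autophagy, -0.04 for the ATF4 programme and 0.12 for heat shock.

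The ATF4 programme, another branch of the stress response, had 3 members higher and 3 lower of 28 (21.4%, against 9.06% of all genes). Its median log2 fold change was -0.04. The number that rose was 0 without shControl replicate 3 or GALNT7 KD replicate 1 and 1 without shControl replicate 1 or 2, and the number that fell was 1 when any 1 of these 4 libraries was left out. ATF4 itself was at 7096, 7151 and 7133 in shControl and 6188, 6161 and 6203 in GALNT7 KD cells (log2 fold change -0.20, standard error 0.0338, limma adjusted p = 0.016). Its target DDIT3 (CHOP, on chromosome 12) was at 922, 971 and 970 against 947, 971 and 928 (-0.01, limma adjusted p = 0.95), with overlapping groups. SLC7A5, an amino acid transporter, fell from 7456, 7102 and 7599 to 4806, 4247 and 5143 (-0.65, limma adjusted p = 0.0051). None of the 8 amino acid synthesis genes passed. The secreted stress factor GDF15 rose from 1308, 981 and 754 to 2286, 2058 and 3655 (1.38, limma adjusted p = 0.026). The call of ATF4 was lost without any 1 shControl library or GALNT7 KD replicate 1 (limma adjusted p at most 0.071). That of GDF15 was lost without shControl replicate 2 or 3 or GALNT7 KD replicate 1 (at most 0.077). With any library left out the log2 fold change stayed at -0.21 to -0.20 for ATF4 and 1.13 to 1.59 for GDF15.

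Of 25 heat shock genes tested, most of them cytosolic, 3 rose and 2 fell, and the median log2 fold change was 0.12. Both that fell lie on chromosome 12, and without its genes 3 of 22 rose and 0 fell. That is 13.6%, against 8.25% of all genes outside chromosome 12 and 11.3% of all genes with a mean of at least 50. The number that rose was 1 without any 1 shControl library or GALNT7 KD replicate 1, and the number that fell was 0 to 1 with any library left out. HSP90AA1 was at 41299, 41214 and 39713 in shControl and 51421, 49348 and 47512 in GALNT7 KD cells (0.28, limma adjusted p = 0.0072). FKBP4, a chaperone partner of steroid receptors that lies on chromosome 12, fell from 10753, 9665 and 10070 to 6094, 4804 and 6715 (-0.80, limma adjusted p = 0.012; 0.054 without shControl replicate 1). None of the 9 genes of the HSP70 group passed. HSPA1A was listed at 0 in all libraries. It lies in the HLA region, where identifiers outside the annotation can take reads.

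Of 37 hypoxia and glycolysis genes, 13 rose and 3 fell, with a median log2 fold change of 0.21. Without the genes of chromosome 12, 13 of 34 rose and 1 fell. NDRG1, a gene induced by low oxygen, was at 2204, 2123 and 2306 in shControl and 4450, 4265 and 4741 in GALNT7 KD cells (1.02, standard error 0.0598, limma adjusted p = 5.1e-04). BNIP3, a mitophagy receptor, was at 855, 773 and 728 against 1309, 1346 and 1196 (0.71, limma adjusted p = 0.0065). Both are well known targets of the hypoxia-inducible factors, and in both the groups were apart. BHLHE40, a repressor that is also induced by low oxygen, went the other way, from 272, 164 and 136 to 25.1, 23.5 and 20.2 (-2.94, limma adjusted p = 0.0027). VEGFA, the angiogenic factor, was at 1010, 1168 and 1115 against 1073, 1033 and 1247 and did not pass (0.02, limma adjusted p = 0.91), and CA9 did not pass either (0.01). The count of members that rose was 6 without GALNT7 KD replicate 1 and 7 to 8 without any 1 shControl library. The zinc-binding metallothioneins MT1E (366, 338 and 362 against 197, 192 and 184; -0.89, limma adjusted p = 0.0038) and MT1G (-0.89, limma adjusted p = 0.011; at most 0.056 without replicate 1 of either group) fell, among 6 tested. They are similar in sequence and may share reads.

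Lipid genes moved in both directions: LPL and several genes of fatty acid oxidation rose, and SREBF1 and SCD, which drive lipid synthesis, fell. LPL, the lipoprotein lipase that frees fatty acids from circulating fat, was at 1252, 1301 and 1280 in shControl and 5169, 5401 and 5330 in GALNT7 KD cells. It rose by 2.05 on the log2 scale (standard error 0.0477, limma adjusted p = 1.3e-05), and the highest adjusted p with a library left out was 6.3e-04. PDK4, which turns the use of pyruvate down in favour of fat, was at 10226, 9289 and 9044 against 20869, 22383 and 20690 (1.16, limma adjusted p = 2.5e-04). CPT1A, the gate for fatty acid entry into mitochondria, was at 2061, 2080 and 1873 against 3909, 3758 and 4100 (0.97, limma adjusted p = 7.0e-04). The means of the knockdown libraries for these genes were 1.96 to 4.15 times those of the controls.

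Over the whole list of lipid use and storage, 9 of 34 rose and 3 fell (median 0.22). Among 15 oxidation genes 5 rose and 0 fell. Of 9 genes for lipid droplets and lipolysis 2 rose (LPL and ANGPTL4) and 2 fell, with a median of 0.04. PNPLA2, the first lipase of the lipid droplet, was at 546, 555 and 494 against 250, 196 and 255 (-1.19, limma adjusted p = 0.0040). The droplet coat protein PLIN5 was at 240, 196 and 227 against 57.0, 88.5 and 90.5 (-1.50, limma adjusted p = 0.0095). Without GALNT7 KD replicate 1 the count of members that rose was 5.

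On the side of synthesis, SREBF1, which encodes the transcription factor of fatty acid synthesis, was at 2333, 2180 and 2157 in shControl and 1185, 1026 and 1104 in GALNT7 KD cells (-1.01, standard error 0.0735, limma adjusted p = 0.0011). SCD, the desaturase that makes oleate, was at 11198, 11600 and 11312 against 5889, 5658 and 5461 (log2 standard error 0.0417, limma adjusted p = 1.0e-04). In both, shControl cells had 2.01 times the mean of GALNT7 KD cells. The rest of the pathway did not follow as a group: of 25 synthesis genes 3 rose and 3 fell, and FASN, the fatty acid synthase, was at 10050, 8971 and 10382 against 8792, 8126 and 10969 (-0.09, limma adjusted p = 0.69). The elongases ELOVL2 (563, 538 and 516 against 1283, 1204 and 1138; 1.16, limma adjusted p = 7.2e-04) and ELOVL5 (0.55, limma adjusted p = 0.0016) rose.

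Sterol genes had 0 of 27 members higher and 5 lower (18.5%, against 9.06% of all genes). Their median log2 fold change was -0.10, and 1 to 3 were lower with a library left out. Among them were INSIG1, which holds back the processing of the sterol regulators, and SCARB1, a lipoprotein receptor on chromosome 12. Their calls were not kept in every fit with a library left out. The log2 fold change in these fits was -0.37 to -0.29 for INSIG1 and -0.59 to -0.46 for SCARB1. The highest limma adjusted p was 0.086 for INSIG1 (lost whichever library was left out) and 0.063 for SCARB1 (lost without shControl replicate 1 or 3 or GALNT7 KD replicate 1).

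**Figure D3:**
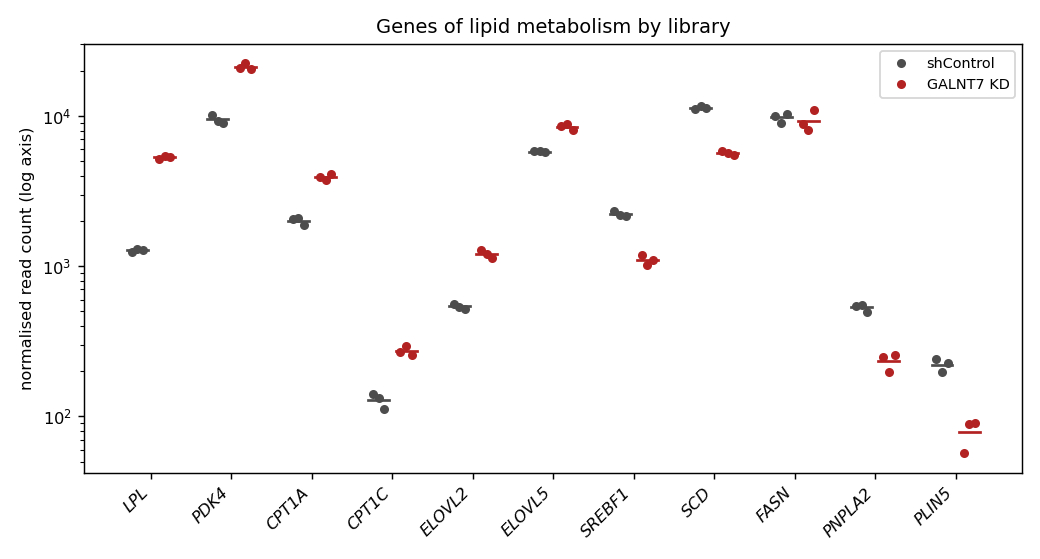
Normalised read counts of 11 lipid genes on a log axis, 1 point per library with a line at the group mean, shControl in grey and GALNT7 KD in red. LPL, PDK4, CPT1A, CPT1C and the elongases were higher in every knockdown library, SREBF1, SCD, PNPLA2 and PLIN5 were lower in every one, and FASN overlapped.

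Lysosome and autophagy genes showed small rises: 15 of 54 rose and 0 fell, with a median log2 fold change of 0.09. GABARAPL1, an ATG8 protein of the autophagosome on chromosome 12, changed most, from 170, 145 and 134 to 369, 430 and 647 (1.65, limma adjusted p = 0.0082). CTSL, a lysosomal protease, was at 1562, 1515 and 1583 against 2246, 2136 and 2035 (0.46, limma adjusted p = 0.0077), and the proton pump subunit ATP6V0B at 2701, 2922 and 2977 against 3962, 3902 and 4020 (0.47, limma adjusted p = 0.0048). SQSTM1, the autophagy receptor that also binds KEAP1, was at 2194, 2073 and 2083 against 3018, 2657 and 3321 (0.50, limma adjusted p = 0.019; at most 0.075 without any 1 shControl library or GALNT7 KD replicate 1). Without GALNT7 KD replicate 1 the count of members that rose was 4, and it was 6 to 7 without any 1 shControl library. The median stayed between 0.09 and 0.12 with any library left out.

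Secreted proteins included some of the best separated genes in both directions. STC1, the glycoprotein hormone stanniocalcin, was at 1324, 1332 and 1461 in shControl and 5995, 6120 and 5789 in GALNT7 KD cells (log2 fold change 2.12, standard error 0.0582, limma adjusted p = 2.8e-05). Of 6 hormone-like proteins, 4 rose: STC1, ANGPTL4 (0.63, limma adjusted p = 0.0081), ENHO (0.72, 0.0098) and NENF (0.54, 0.0046). The binding proteins of insulin-like growth factors moved apart, since IGFBP2 rose (5549, 5587 and 5418 against 7585, 7667 and 8204; 0.50, limma adjusted p = 0.0023). IGFBP5 was at 261, 299 and 327 against 73.5, 67.2 and 172 (-1.62, limma adjusted p = 0.037), with a call that held only without GALNT7 KD replicate 3 (at most 0.12 otherwise). Over 38 secreted growth regulators, 8 rose and 1 fell, with a median of 0.12.

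Several ligands of the BMP and activin group fell. Of 10 ligands of the TGF-beta superfamily tested, 4 fell (BMP2, BMP7, INHBA and INHBB) and GDF15 rose. BMP2, a bone morphogenetic protein, was at 111, 128 and 115 against 15.5, 17.1 and 16.4 (-2.78, standard error 0.171, limma adjusted p = 6.5e-04). INHBB, which encodes the subunit of activin B, was at 105, 99.9 and 108 against 12.6, 22.4 and 17.3 (-2.55, limma adjusted p = 0.0028). BMP7 was at 39.2, 171 and 82.4 against 1.93, 1.07 and 0.963, which are 325 reads in all against 4 (limma adjusted p = 0.0038). The read ratio for BMP7 was 74.2, with an exact 95% interval of 28.7 to 274 for counting error only. INHBA, the subunit of activin A, had a log2 fold change of -1.14 (limma adjusted p = 0.033) and kept its call only without GALNT7 KD replicate 3 (at most 0.11 otherwise).

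The receptors and targets of this group moved less. TGFBR2, the type II receptor for TGF-beta, rose from 290, 269 and 280 to 513, 502 and 484 (0.84, limma adjusted p = 0.0033), and it was the only one of 10 receptors to pass. None of 6 targets passed, and ID1, the classic target of BMP signals, had a log2 fold change of -0.32.

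Wnt and Notch genes had 2 members higher and 5 lower of 40 (17.5%, against 9.06% of all genes). JAG1, a Notch ligand, was at 70.0, 136 and 79.7 against 5.80, 6.40 and 5.78 (-3.72, standard error 0.304, limma adjusted p = 0.0016). NOTUM, a secreted enzyme that inactivates Wnt proteins, was at 98.0, 90.2 and 98.9 against 10.6, 9.60 and 17.3 (-2.88, limma adjusted p = 0.0024). The Wnt receptor FZD5 fell by 0.52 on the log2 scale (limma adjusted p = 0.0082), and the Wnt inhibitor WIF1, on chromosome 12, rose by 0.64 (1309, 1239 and 1416 against 2168, 2031 and 1978; limma adjusted p = 0.0047). None of 5 Wnt targets and none of 5 Notch targets passed; AXIN2 had a log2 fold change of -0.06 and HES1 of 0.26.

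**Figure D4:**
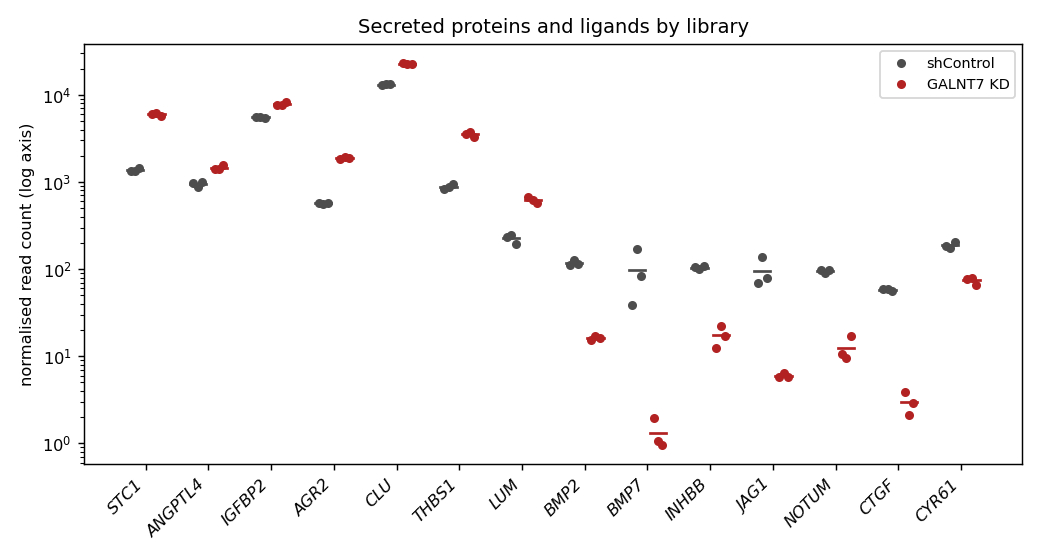
Normalised read counts of 14 genes of secreted proteins and ligands on a log axis, 1 point per library with a line at the group mean, shControl in grey and GALNT7 KD in red. STC1, AGR2, CLU and THBS1 were higher in every knockdown library, and BMP2, BMP7, INHBB, JAG1, NOTUM, CTGF and CYR61 were lower in every one.

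Of 50 extracellular matrix genes, 8 rose and 5 fell (26.0%, against 9.06% of all genes). The number that fell was 2 without replicate 1 of either group. THBS1, the matricellular protein thrombospondin, was at 820, 886 and 947 in shControl and 3582, 3793 and 3293 in GALNT7 KD cells (2.01, standard error 0.0810, limma adjusted p = 1.0e-04). LUM, a small proteoglycan encoded on chromosome 12, was at 233, 247 and 196 against 670, 629 and 579 (1.47, limma adjusted p = 0.0016). MFAP2, a component of microfibrils, was at 61.6, 52.2 and 69.6 against 140, 146 and 143 (1.22, limma adjusted p = 0.0070). CTGF (CCN2), another matricellular protein, fell from 58.8, 59.2 and 55.9 to 3.87, 2.13 and 2.89 (-3.92, standard error 0.289, limma adjusted p = 0.0011), that is from 191 reads to 9. Its relative CYR61 (CCN1) was at 184, 177 and 207 against 77.3, 80.0 and 65.5 (-1.34, limma adjusted p = 0.0038). CTGF, CYR61 and THBS1 are all known targets of YAP and TAZ, the effectors of the Hippo pathway. Over the list for that pathway 2 of 21 members rose and 2 fell (19.0%, against 9.06% of all genes), with a median of 0.07.

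Among 39 proteases and their inhibitors, 9 rose and 6 fell. PAM, which amidates secreted peptides, was at 104, 106 and 60.4 against 361, 336 and 331 (1.96, limma adjusted p = 0.0051). SERPINI1, an inhibitor of plasminogen activators, was at 170, 161 and 168 against 335, 277 and 289 (0.85, limma adjusted p = 0.0084). In both genes the lowest knockdown library lay above the highest control. The number of proteases and inhibitors that rose was 5 without shControl replicate 1, and the number that fell was 2 to 3 without any 1 shControl library or GALNT7 KD replicate 1.

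Genes under androgen control rose more often than they fell: 9 of 22 known targets rose and 2 fell, with a median log2 fold change of 0.22. Without the genes of chromosome 12, 9 of 20 rose and 1 fell. KLK3, which encodes prostate-specific antigen, was at 420, 339 and 418 in shControl and 768, 799 and 856 in GALNT7 KD cells (1.05, standard error 0.110, limma adjusted p = 0.0037). The transcription factor MAF was at 549, 513 and 537 against 1913, 1788 and 2057 (1.85, standard error 0.0762, limma adjusted p = 1.0e-04). ADAM7, a membrane protein of the male tract, was at 191, 213 and 200 against 500, 495 and 447 (1.25, limma adjusted p = 0.0014).

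TMPRSS2, a serine protease and one of the best known androgen targets, was 1 of the 2 that fell, from 287, 213 and 283 to 71.5, 97.1 and 103 (-1.52, standard error 0.194, limma adjusted p = 0.0074). The number of targets that rose was 5 without replicate 1 of either group.

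Secretory products of prostate epithelium changed in both directions. Of 14 tested, 7 rose and 3 fell (median 0.55), and 13 others of the list were below the filter. PGC, a protease of seminal fluid, was at 118, 112 and 133 against 403, 444 and 399 (1.77, limma adjusted p = 6.9e-04). CLU, the secreted chaperone clusterin, was at 12847, 13161 and 13170 against 23163, 22778 and 22710 (0.81, standard error 0.0283, limma adjusted p = 5.3e-05). The 3 that fell were KLK4 (limma adjusted p = 0.014; at most 0.062 without shControl replicate 1 or 3 or GALNT7 KD replicate 1), AZGP1 and NPY. NPY, a neuropeptide made by prostate cells, was at 98.9, 85.8 and 86.1 against 57.0, 50.1 and 41.4 (-0.86, limma adjusted p = 0.033), a call that was lost whichever library was left out (adjusted p at most 0.12). The number that rose was 4 without shControl replicate 2 or 3.

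Luminal identity genes had 4 higher and 4 lower of 19 tested, and 0 to 1 lower without any 1 shControl library or GALNT7 KD replicate 1. KRT19 was at 6612, 6907 and 6699 against 10807, 9861 and 12317 (0.70, limma adjusted p = 0.0047). CD24, a small sialoglycoprotein of the cell surface, was at 83.1, 89.3 and 69.6 against 211, 213 and 241 (1.45, limma adjusted p = 0.0031). EPCAM, the epithelial adhesion molecule, was at 414, 440 and 411 against 282, 263 and 227 (-0.71, limma adjusted p = 0.013; at most 0.055 without shControl replicate 1 or 2). FOLH1, which encodes prostate-specific membrane antigen, was at 3177, 2940 and 3239 against 2063, 2598 and 1951 (-0.51, limma adjusted p = 0.038; kept only without GALNT7 KD replicate 2, at most 0.12 otherwise). Basal genes had 1 higher and 0 lower of 13 (7.69% past the test, against 9.06% of all genes). The 1 that rose was KRT15 (0.97, limma adjusted p = 0.014, and 0.059 without GALNT7 KD replicate 1).

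Neuronal and neuroendocrine genes fell more often than they rose: 9 of 20 tested fell and 4 rose, with a median log2 fold change of -0.97 and library medians of -1.11 to -0.77 in GALNT7 KD cells. SRRM4, the splicing factor of neuronal microexons, which lies on chromosome 12, was at 276, 347 and 342 against 28.0, 56.5 and 70.3 (-2.71, standard error 0.330, limma adjusted p = 0.0065). CPLX1, a complexin that clamps vesicle fusion, was at 108, 158 and 157 against 30.9, 44.8 and 41.4 (-1.82, limma adjusted p = 0.0069). NEFH, the heavy neurofilament chain, was at 518, 516 and 515 against 156, 147 and 158 (-1.74, standard error 0.0884, limma adjusted p = 3.1e-04). SYT4, a vesicle protein, was at 1126, 1124 and 1157 against 660, 593 and 702 (-0.80, limma adjusted p = 0.0034). None of these pairs of groups overlapped.

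In the same list TUBB3, the neuronal tubulin, rose from 750, 786 and 856 to 1582, 1429 and 1640 (0.96, limma adjusted p = 0.0022), and the light neurofilament chain NEFL from 271, 220 and 244 to 406, 357 and 445 (0.72, limma adjusted p = 0.020; at most 0.078 without shControl replicate 2 or 3 or GALNT7 KD replicate 1). The general marker SYP did not pass (-0.18). Without the genes of chromosome 12, 8 of 17 fell and 4 rose, with a median of -1.13. The median rested on genes with few reads: it was -0.18 under a filter of a mean of at least 20. The number that fell was 5 without shControl replicate 1 or 3.

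**Figure D5:**
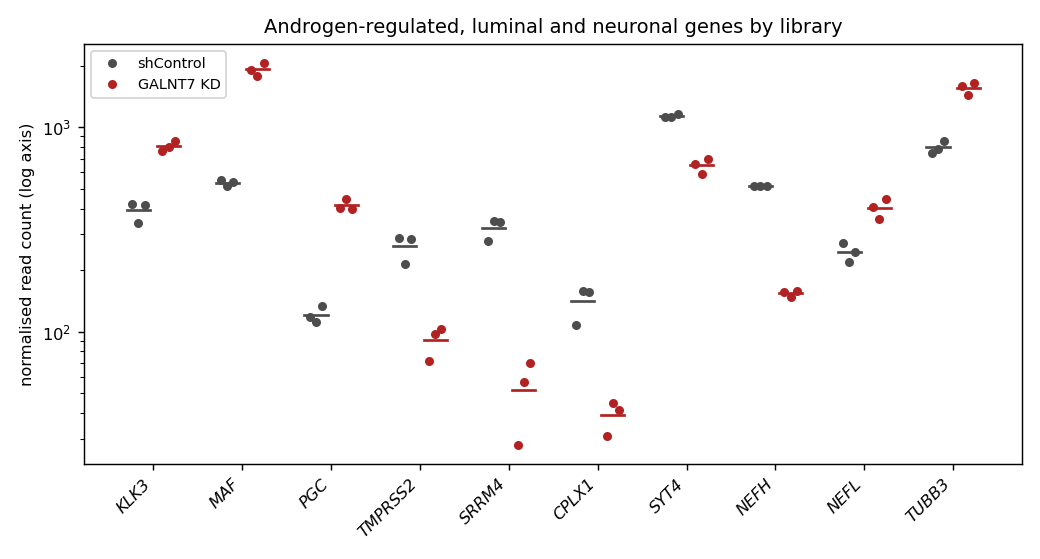
Normalised read counts of 10 androgen-regulated, luminal and neuronal genes on a log axis, 1 point per library with a line at the group mean, shControl in grey and GALNT7 KD in red. KLK3, MAF and PGC were higher in every knockdown library, TMPRSS2, SRRM4, CPLX1, SYT4 and NEFH were lower, and NEFL and TUBB3 were higher.

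Immediate early and MAPK feedback genes had 4 higher and 8 lower of 37, and 4 to 5 lower without any 1 shControl library or GALNT7 KD replicate 1. Without the genes of chromosome 12, 4 of 34 rose and 6 fell. EGR1, a factor induced within minutes of growth factor signals, was at 2049, 1756 and 1908 against 1265, 1149 and 1245 (-0.64, limma adjusted p = 0.0065). DUSP6, the ERK phosphatase, which lies on chromosome 12, was at 1309, 1245 and 1212 against 630, 601 and 615 (-1.03, limma adjusted p = 7.0e-04). RRAD, a small GTPase, was at 250, 346 and 280 against 3.87, 0 and 2.89, or 965 reads in all against 7 (ratio 126, exact 95% interval 60.9 to 314 for counting error; limma adjusted p = 0.0022). ERRFI1, a feedback inhibitor of the EGF receptor, went up, from 2829, 2690 and 2728 to 5362, 5250 and 4914 (0.91, limma adjusted p = 4.4e-04). FOS was at 736, 492 and 419 against 475, 340 and 480 and did not pass (-0.32, limma adjusted p = 0.44).

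Junction genes had 3 higher and 4 lower of 33 (21.2%, against 9.06% of all genes), and 2 lower without shControl replicate 1 or 2. The number that rose was 0 without shControl replicate 1 or 3 or GALNT7 KD replicate 1, and 1 without GALNT7 KD replicate 2. The tight junction protein CLDN4 was at 629, 620 and 628 against 320, 304 and 389 (-0.90, limma adjusted p = 0.0067), and the gap junction protein GJA1 (connexin 43) at 425, 467 and 454 against 197, 182 and 131 (-1.41, limma adjusted p = 0.0055). E-cadherin, CDH1, did not pass (5471, 5304 and 5217 against 5706, 6146 and 5279; 0.10, limma adjusted p = 0.38). Of 20 mesenchymal and cytoskeletal genes 4 rose and 2 fell (30.0%, against 9.06% of all genes). The number that rose was 2 without shControl replicate 1 or 3 or GALNT7 KD replicate 1. Besides MSN, FN1 (0.62, limma adjusted p = 0.026), the factor SNAI2 (0.43, 0.013) and S100A11 (0.48, 0.0040) rose. LCP1 (-0.72, limma adjusted p = 0.042) fell, as did VIM. With a library left out, the limma adjusted p reached 0.094 for FN1, 0.062 for SNAI2 and 0.14 for LCP1. MSN (moesin), which links actin to the membrane, was at 265, 275 and 287 against 618, 650 and 613 (1.18, limma adjusted p = 8.7e-04). VIM (vimentin) was at 70.9, 86.6 and 98.9 against 32.9, 39.5 and 36.6 (-1.20, limma adjusted p = 0.014; at most 0.060 without shControl replicate 2 or 3 or GALNT7 KD replicate 1).

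Among the 13 GALNT enzymes tested, GALNT7 fell and GALNT2 and GALNT10 rose. GALNT2 was at 1552, 1555 and 1614 against 2099, 2028 and 2117 (0.40, limma adjusted p = 0.0080) and GALNT10 at 1548, 1401 and 1703 against 2054, 2113 and 2120 (0.44, limma adjusted p = 0.021; kept without shControl replicate 2 or 3, at most 0.079 otherwise). Of the enzymes that extend the first sugar, 3 of 21 rose and 1 fell (19.0%, against 9.06% of all genes). The number that rose was 1 to 2 with any library left out. GCNT1, the core 2 enzyme, was at 1385, 1363 and 1495 against 600, 735 and 873 (-0.96, limma adjusted p = 0.010). C1GALT1, the core 1 enzyme, was at 127, 112 and 68.7 against 201, 238 and 225 (1.15, limma adjusted p = 0.032), a call kept only without shControl replicate 3 (at most 0.089 otherwise). ST3GAL1, which caps core 1 with sialic acid, was at 8334, 9510 and 8533 against 12781, 12435 and 12248 (0.51, limma adjusted p = 0.0041).

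Of 19 genes for the supply of sugar nucleotides 1 rose (5.26%, against 5.28% of all genes tested) and 0 fell. The 1 that rose was GFPT1, the first enzyme of the hexosamine pathway, at 1479, 1616 and 1495 against 2502, 2257 and 2026 (0.56, limma adjusted p = 0.014). Its adjusted p was at most 0.062 without shControl replicate 1 or 3. Carriers of O-glycans moved both ways. PODXL, a sialomucin of the cell surface, was at 514, 510 and 564 against 175, 173 and 207 (-1.52, standard error 0.110, limma adjusted p = 0.0011). GOLM1, a Golgi protein known as a prostate cancer marker, was at 1138, 1168 and 1120 against 1826, 1674 and 1825 (0.64, limma adjusted p = 0.0031). MUC1 was at 9.33, 102 and 4.58 against 9.67, 10.7 and 14.4, with 1 shControl library above all others, and did not pass (-0.54, limma adjusted p = 0.79).

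In antigen presentation 4 of 15 genes tested rose and 0 fell, and 2 rose without GALNT7 KD replicate 1. HLA-C, a class I heavy chain, was at 248, 291 and 282 against 712, 644 and 679 (1.31, standard error 0.0970, limma adjusted p = 0.0011). Its light chain B2M was at 4677, 4658 and 4418 against 6082, 6006 and 5586 (0.36, limma adjusted p = 0.0099; 0.051 without GALNT7 KD replicate 1). The table holds 3311 identifiers that are not in GENCODE release 29, with 1.96% to 2.01% of the reads, and alternative copies of HLA genes may be among them, so the HLA-C values may be part of the reads of the gene.

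Of 10 death receptor genes 3 rose, among them TNFRSF10D, a decoy receptor for TRAIL (408, 408 and 385 against 719, 678 and 686; 0.79, limma adjusted p = 0.0028), and TNFRSF10B, a signalling receptor for it (0.52, limma adjusted p = 0.010). Of 15 BCL2 family genes only MCL1, a survival factor, passed (6.67%, against 9.06% of all genes). It fell by 0.29 on the log2 scale (limma adjusted p = 0.010, and 0.054 without shControl replicate 1). The dioxin-inducible cytochromes rose together: CYP1B1 was at 339, 453 and 368 against 1222, 1212 and 1488 (1.76, limma adjusted p = 0.0014). CYP1A1 was at 395, 390 and 448 against 754, 804 and 790 (0.93, limma adjusted p = 0.0027), and its neighbour CYP1A2 had a log2 fold change of 1.49 (limma adjusted p = 0.0030). TIPARP, another target of the same receptor, went down (-0.46, limma adjusted p = 0.019; at most 0.071 without any 1 shControl library or GALNT7 KD replicate 1), and AHR itself did not pass (0.56).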

How the data were processed

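Polyadenylated RNA of CWR22Rv1 cells was sequenced after stranded library preparation. The authors deposited a signal per gene, in which the reads of every gene were scaled by the library's size factor; per the labels the submitters' processing notes name FastQC, Salmon, DESeq2, R 3.5.3 and hg38. Each value was a whole multiple of the value of 1 read (100% within 0.01), so reads were recovered. Replicates differed by more than counting noise. Names and positions came from GENCODE release 29 (94.4% of identifiers), promoters from RefSeq.

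Log2(normalised count + 1) was fitted with limma 3.58.1 in R 4.3.3 (lmFit, eBayes with trend) for genes with a mean of at least 5, with Benjamini-Hochberg adjustment at 0.05. On simulated counts with 200 changed genes limma recovered 200 with 7 false calls. The simulation gave all genes the same dispersion between replicates. Its changes were all of 1 on the log2 scale and in genes with a mean of at least 50, so recovery of smaller changes or low genes was not tested. edgeR 4.0.16 and DESeq2 1.42.0 on recovered reads were alternatives, besides other pseudocounts, filters, scalings, the replicate block and each library left out. Genes were named from a fixed list, as up to 6 members per list with the largest change (mean of at least 50, groups apart), and as the 15 highest and 15 lowest protein-coding genes; other genes were named after their values were seen. The members and lists were chosen with earlier results of these data known. The libraries of the other cell line were not used here. Some genes of these lists are not reported here.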

Additional observations from a re-analysis of the deposited data

How the results depend on the processing

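The number of genes past the threshold moved by more than 1.5 times under 4 kinds of change. Without the trend in eBayes, 996 genes passed, 579 higher and 417 lower. DESeq2 on the recovered reads called 2666 genes, 1490 higher and 1176 lower. With 1 library left out, 525 to 1332 genes passed, 298 to 732 of them higher and 197 to 600 lower. With the replicate block, 1002 genes passed, 594 higher and 408 lower. The deviations of libraries with the same number correlated at -0.011, 0.0747 and -0.00568, and those with unlike numbers at -0.0644 to 0.0737. Mitochondrial transcripts were lowest in the second library of both groups. Whether libraries with the same number share a batch was not tested. Other pseudocounts, filters, scalings and edgeR gave 1427 to 1724 genes. The sterol genes that fell numbered 0 without the trend and 10 with DESeq2, against 5. GALNT7 stayed lower under all 16 alternatives, with adjusted p from 2.7e-12 to 0.027 and a log2 fold change of -1.22 to -1.02 with a library left out. Of 175 named genes that passed, 106 did so under every alternative and 147 with the replicate block, and none changed direction; the calls lost without 1 library numbered 19 to 60. For genes with few reads in 1 group, such as BMP7 with 4 in the GALNT7 KD libraries, depth limits the precision of the fold change. The count of proteins with an ER retention tail was not run, since no protein table was used here.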

Other observations

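Among the 15 protein-coding genes with the largest rises and the 15 with the largest falls, several belong to none of the groups above. CPN2, a subunit of a plasma carboxypeptidase, had 1 read in each shControl library and 107, 108 and 119 reads in the GALNT7 KD libraries (ratio of the totals 122, exact 95% interval 41.3 to 594 for counting error; limma adjusted p = 1.5e-04). CYP4F22, a fatty acid hydroxylase of the epidermal lipid barrier, was at 124 ± 8.98 in shControl and 948 ± 63.8 in GALNT7 KD cells (normalised counts, SD, n = 3; log2 fold change 2.93, standard error 0.102, limma adjusted p = 5.3e-05). Near CYP4F22 (chr19:15508493-15552317) lie PGLYRP2 (chr19:15468645-15498956) and CYP4F8 (chr19:15615218-15630638), also among the 15 largest rises. PGLYRP2 rose by 2.65 (limma adjusted p = 0.010) and CYP4F8 by 2.88 (0.019, and at most 0.066 with a library left out). Whether the region changed as a whole was not tested. DEFB132, a beta-defensin, was at 131, 127 and 106 against 740, 741 and 660 (2.55, limma adjusted p = 1.9e-04). DGKG, a diacylglycerol kinase, was at 179, 87.5 and 261 against 1168, 1136 and 876 (2.71, limma adjusted p = 0.0094). S1PR3, a receptor for sphingosine 1-phosphate, was at 27.1, 26.5 and 27.5 against 135, 154 and 156 (2.41, limma adjusted p = 6.5e-04). The nicotinic receptor subunit CHRNA4 was at 0, 0 and 0.916 against 175, 191 and 5.78, so that 2 of the 3 GALNT7 KD libraries held nearly all of its reads (limma adjusted p = 0.043, and at most 0.13 with a library left out, kept only without GALNT7 KD replicate 3).

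Among the genes that fell, P2RY1, a purinergic receptor for ADP, was at 2215, 2064 and 2270 against 581, 572 and 579 (-1.92, standard error 0.0642, limma adjusted p = 5.3e-05). SUSD2, a sushi domain protein of the cell surface, was at 207, 180 and 202 against 26.1, 33.1 and 22.2 (-2.83, limma adjusted p = 7.2e-04). CYFIP2, a member of the complex that starts actin branching, was at 110, 75.2 and 162 against 5.80, 10.7 and 10.6 (-3.52, limma adjusted p = 0.0035). GLDC, the glycine decarboxylase, was at 84.0, 117 and 81.5 against 7.73, 1.07 and 10.6 (-3.98, limma adjusted p = 0.015; at most 0.059 without any 1 shControl library). KIAA0895L was at 1450, 1207 and 1295 against 307, 300 and 415 (-1.96, limma adjusted p = 0.0011).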
